A study of Mus musculus with 8 samples.

Results

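Expression of 10 genes that carry fatty acids into muscle fibres, store them as triglyceride and release them again was compared between Hdac5 knockout and wild type mouse gastrocnemius, a mixed calf muscle. They are Lpl, Angptl4, Cd36, Slc27a1, Fabp3, Acsl1, Plin2, Plin5, Pnpla2 and Lipe, taken by name, and a gene was measured where the array annotation gave a probe set exactly 1 symbol. That held for 9 of the 10 genes, out of 19938 genes tested, and Acsl1, the long-chain acyl-CoA synthetase of muscle, was not analysed here. Where a gene had several probe sets, the brightest on average was used.

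The series holds 8 arrays, 4 of samples labelled HADAC5 KO (the labels' spelling, called knockout here) and 4 of samples labelled HDAC5 WT, which are wild type littermates. Both groups were 30 weeks old, ate low-fat chow, were housed in groups and received no treatment. The labels name no promoter, Cre line or strain for the knockout, and do not say whether each sample was 1 animal, so the p-values below measure the spread between these samples, which may be technical. The study asked what HDAC5, a class IIa deacetylase that represses MEF2-dependent transcription, does in the muscle's interleukin-6 transcription and insulin action.

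Hdac5 itself lay between 8.31 and 8.39 in the 4 knockout samples and between 9.76 and 9.94 in the 4 wild type samples, on the log2 scale of the deposited signals. It fell to 0.35 of the wild type signal (95% interval 0.32 to 0.39, adjusted p = 1.74e-07 in limma), which checks the labels, although the labels do not give the deleted part of the gene. Array medians ran from 7.69 to 7.77 and Pearson correlations between arrays from 0.988 to 0.995. The tissue was as labelled: the mean of 10 skeletal muscle markers, among them Acta1 and Ckm, was 14.10 to 14.15 in knockout and 14.15 to 14.18 in wild type samples. These signals lie close to the highest of any probe set (14.84), where changes can be compressed. All 10 had lower means in knockout muscle, with a median log2 difference of -0.039 and 0 at a limma adjusted p under 0.05. For 1 of them, Tcap, the groups did not overlap, against 4.90% of all genes. In these bulk samples fewer cells of a type and less RNA per cell cannot be told apart.

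Muscle takes fatty acids from circulating lipoproteins and from albumin. Lipoprotein lipase at the capillary wall splits triglyceride, CD36 and the transport protein FATP1 bring the fatty acids through the membrane, and FABP3 carries them through the cytosol. What is not burned at once is stored in lipid droplets coated by perilipins, and the lipases ATGL and HSL release it when the fibre needs fuel. Many of these genes are known targets of PPAR receptors, which bind repeats of the hexamer AGGTCA together with RXR.

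Promoter windows are shown first because they let a reader see which genes carry that hexamer near their start. RefSeq windows (GRCm38.p6) of 250 bases before to 50 bases from an annotated start were matched for 8 of the 10 genes, 13 windows in all. AGGTCA, read on both strands, was in 4 of them, belonging to Cd36, Plin2 and Plin5, and in 16.3% of all 32851 windows of that length. The E-box CACGTG was in 3 windows, of Plin2, Lipe and Slc27a1, and in 7.15% of all windows. The core of a MEF2 site (CTA, any 4 bases, TAG) was in 0 of the 13 and in 3.69% of all. The windows below are those of the 3 genes with AGGTCA (for Plin5 the first of 2) and the window of Slc27a1, number 3 of 3, that holds CACGTG. They are written 5′ to 3′ on the gene's strand, and capitals mark AGGTCA, its reverse complement TGACCT, or CACGTG. A match is a description of the letters and not a measured binding site.

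Cd36, chr5:17835847-17836146, minus strand: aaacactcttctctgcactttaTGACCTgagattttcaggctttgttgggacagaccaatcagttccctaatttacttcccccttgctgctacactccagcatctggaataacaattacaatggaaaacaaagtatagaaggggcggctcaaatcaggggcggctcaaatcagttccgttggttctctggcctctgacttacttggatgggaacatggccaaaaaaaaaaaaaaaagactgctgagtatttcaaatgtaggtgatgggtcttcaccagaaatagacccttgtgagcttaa

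Plin2, chr4:86670010-86670309, minus strand: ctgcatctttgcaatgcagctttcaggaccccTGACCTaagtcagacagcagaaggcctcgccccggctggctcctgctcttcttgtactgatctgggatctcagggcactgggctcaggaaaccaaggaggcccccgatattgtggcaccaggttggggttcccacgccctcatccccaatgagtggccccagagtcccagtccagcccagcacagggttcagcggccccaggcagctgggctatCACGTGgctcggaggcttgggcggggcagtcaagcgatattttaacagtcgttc

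Plin5, chr17:56117499-56117798, minus strand: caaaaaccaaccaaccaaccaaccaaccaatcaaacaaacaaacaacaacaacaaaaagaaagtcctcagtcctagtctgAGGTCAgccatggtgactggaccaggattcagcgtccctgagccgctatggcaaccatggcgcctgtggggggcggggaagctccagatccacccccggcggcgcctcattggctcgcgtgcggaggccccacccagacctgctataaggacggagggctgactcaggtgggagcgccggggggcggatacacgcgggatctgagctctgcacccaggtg

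Slc27a1, chr8:71570344-71570643, plus strand: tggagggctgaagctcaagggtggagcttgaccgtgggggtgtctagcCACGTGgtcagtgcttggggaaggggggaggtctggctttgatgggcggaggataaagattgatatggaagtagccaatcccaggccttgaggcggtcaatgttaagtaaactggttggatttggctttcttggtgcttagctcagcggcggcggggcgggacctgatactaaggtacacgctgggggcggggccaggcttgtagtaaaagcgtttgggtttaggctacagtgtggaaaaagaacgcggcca

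In Cd36 and Plin2 the hexamer lies on the opposite strand, with the leftmost base 228 and 218 bases before the start, and in Plin5 on the gene's own strand, 170 bases before it. The CACGTG of Plin2 begins 4 bases before the start and that of Slc27a1 202 bases before it.

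No difference between the genotypes was called for any of the 9 measured genes. At an adjusted p under 0.05 in limma, with adjustment over all genes, 0 of 9 passed, where 13 of the 19938 genes (0.0652%) did, and the adjusted p-values of the 9 ran from 0.492 to 0.936. At an unadjusted p under 0.05 in limma, Slc27a1 and Angptl4 were higher in knockout muscle, 2 of 9, against 7.90% of all genes in either direction and 4.72% in that direction. Means were higher in knockout muscle for 7 genes and lower for Lpl and Plin2, with a median difference of 0.05 on the log2 scale beside 0.003 over all genes. The 95% intervals of all 9 differences lay within 1.5-fold of no difference, the widest reaching 0.80 of the wild type signal for Lpl and 1.49 times it for Angptl4. With all probe sets in the fit, the interval of Angptl4 reached 1.53 times.

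Lpl, the lipase that frees fatty acids from lipoproteins, had the lowest relative level in knockout muscle. Its signals were 12.50, 12.83, 12.80 and 12.80 in knockout samples 1 to 4 and 12.94, 12.82, 12.91 and 12.88 in wild type samples 1 to 4. Knockout sample 1 stood 0.29 below the others of its group, and the groups met at knockout sample 2 and wild type sample 2. The difference was -0.15 (SE 0.076, 95% interval -0.32 to 0.01) with a limma adjusted p of 0.659 and an exact permutation p of 0.0571 for 4 against 4 samples. Without knockout sample 1 the difference was -0.08.

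Angptl4 encodes a secreted protein that inactivates lipoprotein lipase and rises with fasting and fatty acid supply. Its signals were 8.31, 7.87, 7.93 and 7.68 in the knockout samples and 7.64, 7.81, 7.62 and 7.45 in the wild type samples. Knockout samples 1, 2 and 3 lay above every wild type sample, and knockout sample 4 lay below wild type sample 2. The difference of 0.32 (SE 0.119, 95% interval 0.06 to 0.58), a ratio of 1.25, had a limma adjusted p of 0.497 and an exact permutation p of 0.0571. It was 0.20 without knockout sample 1 and 0.41 without knockout sample 4. Angptl4 was the one of the 9 genes whose mean, 7.79, lay below the level of the median gene (8.05). Changes of dim signals can be compressed, which was not tested for this gene.

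Cd36, the scavenger receptor through which much of a fibre's fatty acid enters, read 12.51, 12.84, 12.63 and 12.67 in the knockout samples and 12.51, 12.62, 12.80 and 12.54 in the wild type samples. The groups covered nearly the same range. Their difference was 0.04 (SE 0.083, 95% interval -0.14 to 0.22, ratio 0.91 to 1.17), with a limma adjusted p of 0.936, and its sign turned without knockout sample 2 (-0.016).

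Slc27a1 encodes FATP1, a transporter and acyl-CoA synthetase of the plasma membrane and mitochondria of muscle. It read 10.66, 10.71, 10.75 and 10.62 in the knockout samples and 10.55, 10.56, 10.40 and 10.57 in the wild type samples. Every knockout sample lay above every wild type sample. This was so for 1 of the 9 genes, against 2.91% of all genes in that direction and 4.90% in either. Slc27a1 differed by 0.16 (SE 0.061, 95% interval 0.03 to 0.30), a ratio of 1.12, with an exact permutation p of 0.0286, the smallest that 4 against 4 samples can give, and a limma adjusted p of 0.492. The gap between the groups, from 10.57 to 10.62, was smaller than the SD of either group (0.06 and 0.08), and leaving out any 1 array kept the difference between 0.12 and 0.19.

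Slc27a1 had the smallest p of the 9 genes, so the genes most like it were sought among the 9968 others above the median gene, by Pearson correlation over the 8 arrays after centring each group on its mean. The 3 most alike were Gm4750 (r = 0.984), Sgpl1, the sphingosine-1-phosphate lyase (0.954), and Cyp2e1, a cytochrome P450 (0.948). Each is the top of a long ranking over few arrays, and none of them differed between the genotypes by more than 0.02.

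Fabp3, the fatty acid binding protein of heart and muscle cytosol, read 13.08, 13.44, 13.42 and 13.38 in the knockout samples and 13.26, 13.28, 13.28 and 13.33 in the wild type samples. Knockout samples 2, 3 and 4 lay above every wild type sample and knockout sample 1 lay below every one of them. The difference over all 8 samples was 0.04 (SE 0.079, 95% interval -0.13 to 0.21) with a limma adjusted p of 0.934, and it was 0.13 without knockout sample 1. A second probe set with the same symbol behaved alike, at 12.80 in knockout sample 1, 13.14 to 13.21 in the other knockout samples and 13.00 to 13.08 in wild type muscle. RefSeq lists a pseudogene, Fabp3-ps1, whose signal these probe sets may share.

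**Figure D1:**
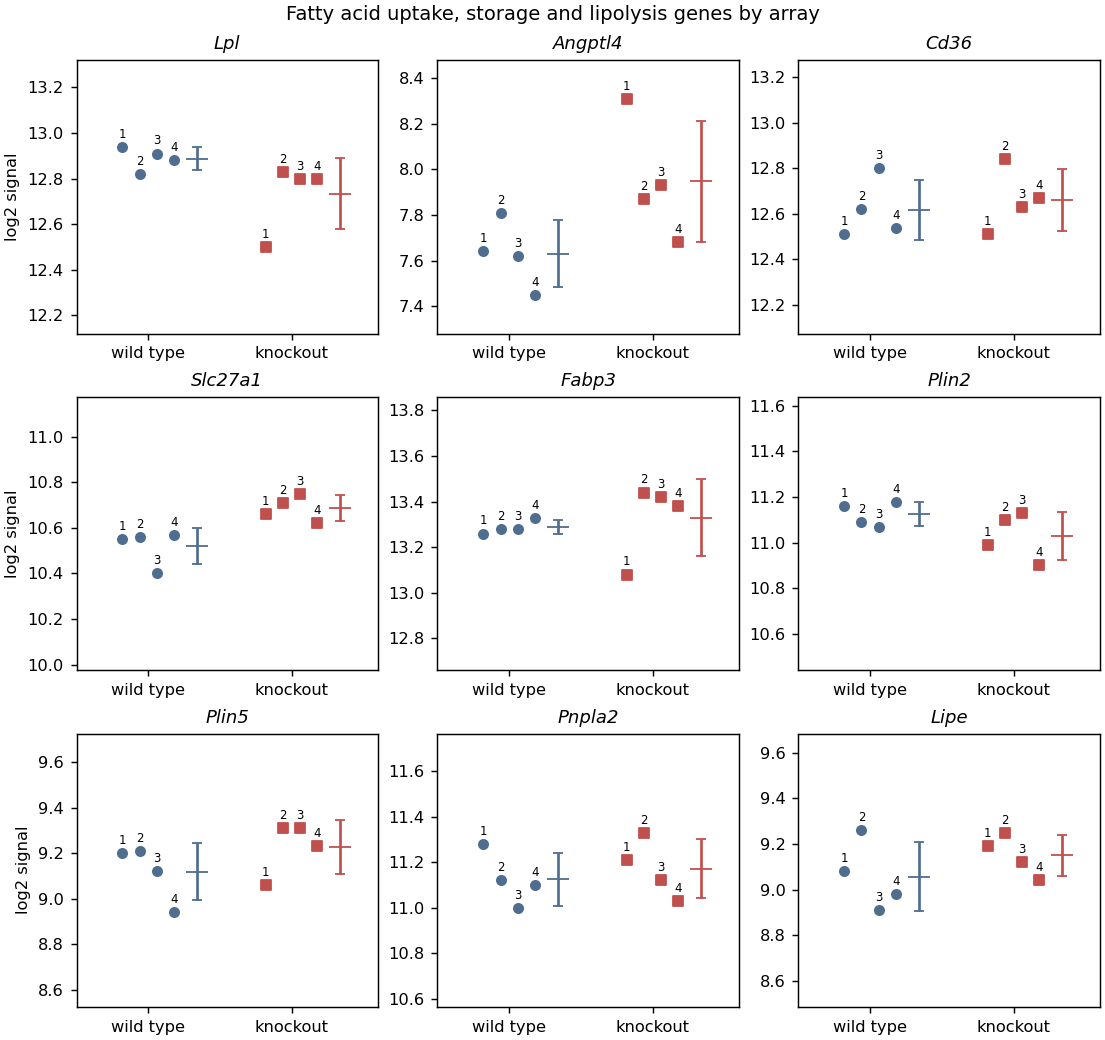
Log2 signal of the 9 genes in each array, wild type as circles and knockout as squares, with the replicate number above each point and the mean ± SD (n = 4 per group) beside it; every panel spans the same height. Only in Slc27a1 do all knockout samples lie above all wild type samples, and knockout sample 1 stands low for Lpl (12.50) and Fabp3 (13.08) and high for Angptl4 (8.31).

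Plin2 and Plin5 coat lipid droplets, Plin5 in oxidative tissues where it tethers droplets to mitochondria. Plin2 read 10.99, 11.10, 11.13 and 10.90 in the knockout samples and 11.16, 11.09, 11.07 and 11.18 in the wild type samples. Knockout samples 1 and 4 lay below every wild type sample and the other 2 lay within the wild type range, a difference of -0.09 (SE 0.065, 95% interval -0.24 to 0.05, limma adjusted p = 0.791). Plin5 read 9.06, 9.31, 9.31 and 9.23 in the knockout samples and 9.20, 9.21, 9.12 and 8.94 in the wild type samples. Here knockout samples 2, 3 and 4 lay above every wild type sample while knockout sample 1 lay below 3 of the 4. The difference was 0.11 (SE 0.078, 95% interval -0.06 to 0.28, limma adjusted p = 0.793). Exact permutation p-values were 0.200 for Plin2 and 0.257 for Plin5. Whether the 2 perilipins differed from each other in their response was not tested.

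Pnpla2 encodes ATGL, which takes the first fatty acid off triglyceride, and Lipe encodes HSL, which acts on the diglyceride that remains. Pnpla2 read 11.21, 11.33, 11.12 and 11.03 in the knockout samples and 11.28, 11.12, 11.00 and 11.10 in the wild type samples, 2 ranges that overlap almost wholly. The difference of 0.05 (SE 0.079, 95% interval -0.12 to 0.22) had a limma adjusted p of 0.924, and its sign turned without knockout sample 2 (-0.0045). Lipe read 9.19, 9.25, 9.12 and 9.04 in the knockout samples and 9.08, 9.26, 8.91 and 8.98 in the wild type samples. Its highest and its lowest value both came from wild type muscle, and the difference was 0.09 (SE 0.080, 95% interval -0.08 to 0.27, limma adjusted p = 0.834).

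**Figure D2:**
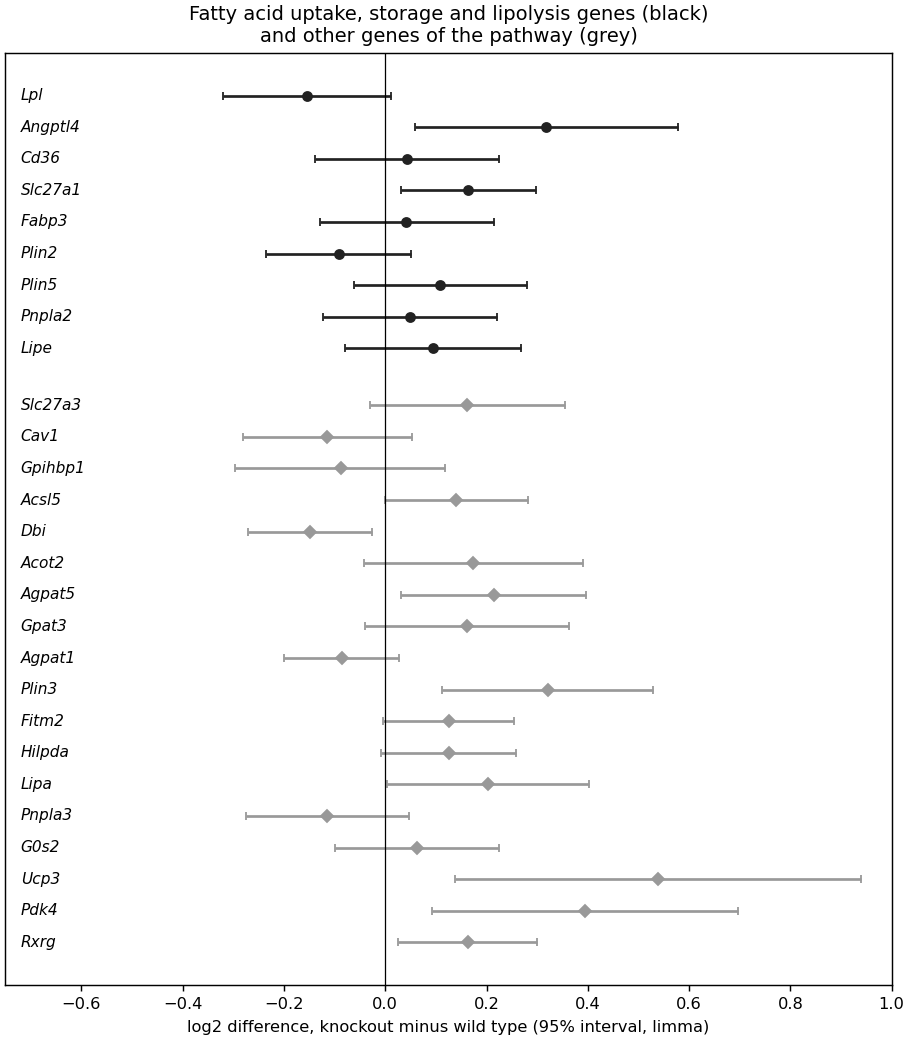
Log2 difference, knockout minus wild type, with limma's 95% interval (4 arrays per group), for the 9 genes in black and for other genes of the pathway in grey, the 3 of smallest p from each list. Before adjustment for the number of genes tested, intervals of Angptl4 and Slc27a1 lie above 0 among the 9 genes. Among the grey genes those of Plin3, Ucp3, Pdk4, Rxrg, Agpat5 and Lipa lie above 0 and that of Dbi below it. None of the genes shown passes after adjustment.

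Lipe and the lipases of fat are also expressed by adipocytes, which can lie between muscle fibres, and adipocyte markers spanned a wide range over the arrays. Adipoq, the adipocyte hormone adiponectin, read 10.15 in wild type sample 2 and 6.88 in wild type sample 3, a 9.61-fold span, and 8.70 to 9.38 in the knockout samples. Retn, another adipocyte hormone, spanned 7.03-fold between the same 2 samples. The mean of the 10 measured adipocyte markers was 8.56 to 8.88 in knockout and 8.05 to 9.40 in wild type muscle, with 4 markers higher and 6 lower in knockout muscle and 0 past the threshold (smallest limma adjusted p = 0.719). Its brightest genes, Fabp4 and Thrsp, had means of 11.84 and 9.51 in knockout and 11.79 and 9.56 in wild type muscle. The same wild type samples held the highest (9.26) and lowest (8.91) Lipe signal, a span of 1.27-fold, whereas in none of the other 8 genes did both extremes come from these 2 samples. Wild type sample 3 also held the lowest Slc27a1 (10.40) and Pnpla2 (11.00) signal, with the highest of both in knockout samples. What part adipocyte content had in the spread of Lipe, Slc27a1 and Pnpla2 was not tested. An alternative chosen after seeing the data left out wild type samples 2 and 3. There Lipe differed by 0.12, Slc27a1 by 0.12 and Pnpla2 by -0.014, and 0 of the 9 genes passed.

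Lpl, Cd36 and Fabp4 are also expressed by endothelial or fat cells. The mean of the 10 endothelial markers, which include Cdh5 and Fabp4, was 10.07 to 10.38 in knockout and 10.13 to 10.31 in wild type muscle. Of the 10, 4 had higher and 6 had lower means in knockout muscle, with 0 past the threshold (smallest limma adjusted p = 0.675). The mean of the list, like Lpl and Fabp3, was lowest in knockout sample 1. Cdh5, an adhesion molecule of endothelium, was also lowest there (11.32), with its highest value, 11.70, in knockout sample 2. Pecam1, Tie1, Egfl7 and Gpihbp1 were lowest in knockout sample 1 too. Kdr and Cldn5 were lowest in knockout sample 3 (10.41 and 8.96), and Tek, Emcn and Fabp4 in wild type samples. Fabp4, the fatty acid binding protein of capillaries and fat, read 11.76 to 12.00 in knockout and 11.68 to 12.03 in wild type muscle (difference 0.05, SE 0.085, limma adjusted p = 0.923).

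Slow oxidative fibres hold more of the machinery for fatty acids than fast ones. All 10 slow fibre markers were measured, and their mean was 10.82 to 11.41 in knockout and 11.42 to 11.81 in wild type muscle, lowest in knockout sample 1. Of these, 9 had lower and 1 had higher means in knockout muscle, with 0 past the threshold (smallest limma adjusted p = 0.0763). At a limma p under 0.05 before adjustment 9 were lower and 1 was higher, against 7.90% of all genes, and in 7 of the 10 every knockout sample lay below every wild type sample, against 4.90% without overlap in either direction. Myh7, the slow myosin, read 11.01 in knockout sample 1, 11.84 to 12.14 in the other knockout samples and 12.22 to 12.73 in wild type muscle. The brightest 2, Tpm3 and Myl2, differed by -0.57 and -0.34. Beside these, Lpl and Plin2 differed by -0.15 and -0.09 and the other 7 of the 9 genes by 0.04 to 0.32, and the part of fibre type in these values was not tested. The mean of 10 fast fibre markers, among them Atp2a1 and Actn3, was 14.29 to 14.33 in knockout and 14.32 to 14.34 in wild type muscle. All 10 had lower means in knockout muscle, with a median difference of -0.022 and 0 past the threshold. For 2 of them, Tnni2 and Tnnt3, the groups did not overlap, against 4.90% of all genes. These signals lie close to the highest of any probe set (14.84), where changes can be compressed. Macrophages also express Cd36, Lpl and Plin2. Macrophage markers, with Lyz2 and Mrc1 the brightest, had a mean of 8.42 to 8.72 in knockout and 8.16 to 8.48 in wild type muscle, with 11 of 12 higher in knockout muscle and 0 past the threshold (smallest limma adjusted p = 0.192). Before adjustment 9 of the 12 were higher at a limma p under 0.05, against 4.72% of all genes in that direction. For 2 of the 12, Adgre1 and Lyve1, every knockout sample lay above every wild type sample, against 2.91% of all genes. The part of macrophage content in the values of the 9 genes was not tested.

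**Figure D3:**
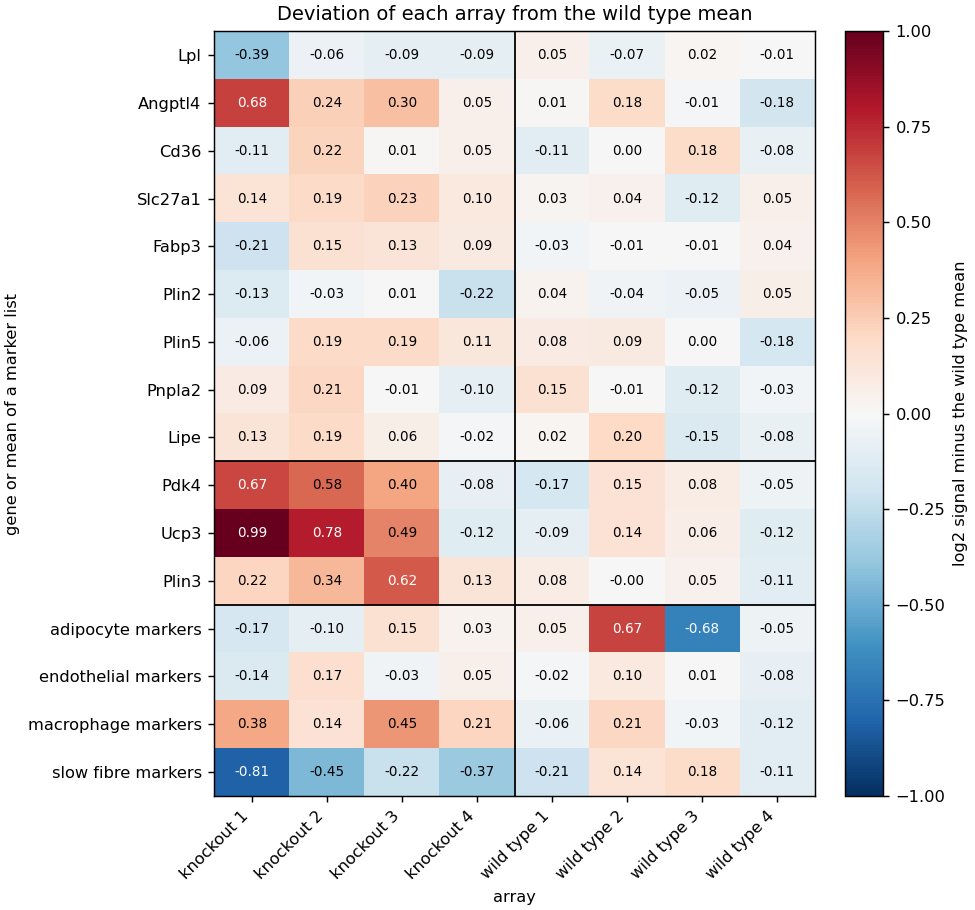
Log2 signal of each array minus the wild type mean for the 9 genes, for Pdk4, Ucp3 and Plin3, and for the mean of 4 marker lists; columns are arrays, red is higher and blue lower. Knockout sample 1 combines the highest Angptl4, Pdk4 and Ucp3 with the lowest Lpl, Fabp3 and slow fibre markers, and wild type samples 2 and 3 hold the extremes of the adipocyte markers (9.40 and 8.05).

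Of 67 other genes listed in 6 groups, 60 were measured and 0 passed the threshold in limma. Before adjustment, 6 of the 60 were higher and 1 was lower at a limma p under 0.05, against the 7.90% of all genes, and the median difference was 0.01. Groups did not overlap for 5 of the 60 (Plin3 and Rxrg, with knockout samples above, and Dbi, Agpat1 and Fitm1, with knockout samples below), against 4.90% of all genes.

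Among 11 other genes of uptake and delivery, 7 had higher and 4 lower means in knockout muscle. Slc27a3, a further member of the transporter family, differed by 0.16 (SE 0.088), Cav1, the caveolin of endothelium and fat, by -0.11 (SE 0.076), and Gpihbp1, which anchors lipoprotein lipase to the capillary wall, by -0.09 (SE 0.095). Gpihbp1 read 9.35 in knockout sample 1 and 9.70 to 9.82 in the other 7 samples. Lpl (12.50) and the mean of the endothelial markers (10.07), which include Gpihbp1, were also lowest in that sample. Among those markers Kdr, Cldn5, Tek, Emcn and Fabp4 were lowest in other samples. What part endothelial content had in these values was not tested.

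Acyl-CoA genes went both ways, with 4 higher and 4 lower of 8. In place of Acsl1, its relatives Acsl4, Acsl5 and Acsl6 were measured, and they differed by 0.09, 0.14 and -0.005. Dbi, the acyl-CoA binding protein, read 11.22 to 11.38 in knockout and 11.42 to 11.48 in wild type muscle, without overlap (difference -0.15, SE 0.056, limma adjusted p = 0.507). Acot2, a mitochondrial thioesterase, differed by 0.17 (SE 0.099).

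Of 14 genes of triglyceride synthesis, 9 had higher means. Agpat5, an acyltransferase, differed by 0.21 (SE 0.084), Gpat3 by 0.16 (SE 0.092) and Agpat1 by -0.09 (SE 0.052), and none passed (limma adjusted p = 0.532, 0.724 and 0.750). Dgat1 and Dgat2, which complete triglyceride, differed by -0.02 and -0.10.

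Droplet proteins had a median difference of 0.12 over 10 genes, 7 of them higher. Plin3, a perilipin found in most tissues, had the smallest p of the 60 genes. It read 9.74, 9.86, 10.14 and 9.65 in the knockout samples and 9.60, 9.52, 9.57 and 9.41 in the wild type samples. All knockout samples lay above all wild type samples, with a difference of 0.32 (SE 0.095) and a limma adjusted p of 0.365. Fitm2, which helps droplets bud from the endoplasmic reticulum, and Hilpda, an inhibitor of ATGL, differed by 0.13 (SE 0.059) and 0.12 (SE 0.061).

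Of 8 other genes of lipolysis, 4 were higher and 4 lower. Lipa, the acid lipase of lysosomes, differed by 0.20 (SE 0.092, limma adjusted p = 0.619), Pnpla3, a relative of ATGL, by -0.11 (SE 0.073), and G0s2, an inhibitor of ATGL, by 0.06 (SE 0.074). Abhd5, the activator that ATGL needs, differed by 0.02.

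Among 9 PPAR receptors and targets, 4 had higher and 5 lower means in knockout muscle. Ppara, Ppard and Pparg, the receptors, differed by -0.07 each, and Rxrg, a partner receptor of muscle, read 10.71 to 10.94 in knockout and 10.58 to 10.68 in wild type muscle (difference 0.16, SE 0.063, limma adjusted p = 0.524). Pdk4 and Ucp3, both known targets, had the largest differences of the list. Pdk4, the kinase that turns off glucose oxidation when fat is burned, read 13.97, 13.88, 13.70 and 13.22 in the knockout samples and 13.13 to 13.45 in the wild type samples. Ucp3, a mitochondrial carrier induced by fatty acids, read 12.09, 11.88, 11.59 and 10.98 against 10.98 to 11.24. In both, as in Angptl4, knockout sample 1 was highest, knockout samples 1, 2 and 3 lay above every wild type sample, and knockout sample 4 was lowest of its group and not above the wild type range. Pdk4 differed by 0.39 (SE 0.138) and Ucp3 by 0.54 (SE 0.184), and neither passed (limma adjusted p = 0.462 and 0.461). Without knockout sample 4 Ucp3 passed, with a difference of 0.76 (SE 0.110, limma adjusted p = 0.0340), while Angptl4 did not (limma adjusted p = 0.248). That sample held the lowest Ucp3 of its group, so leaving it out widens the difference by itself. Ucp3 passed in no other of the 17 alternatives.

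**Figure D4:**
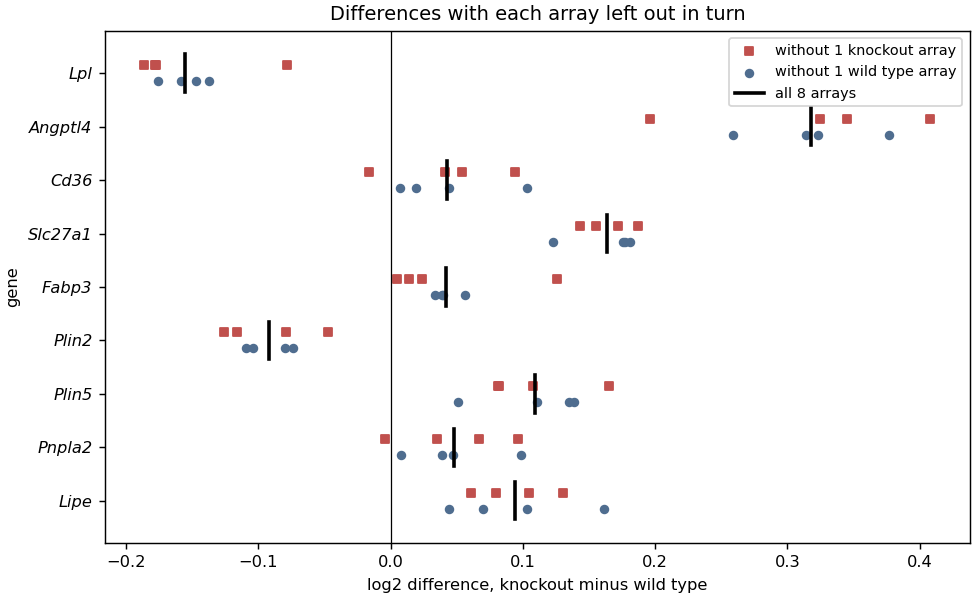
Log2 difference, knockout minus wild type, of each gene with all 8 arrays (black bar) and with 1 knockout array (squares) or 1 wild type array (circles) left out. Angptl4 moves between 0.20 and 0.41 and Slc27a1 between 0.12 and 0.19, while Cd36 and Pnpla2 cross 0 without knockout sample 2.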

How the data were processed

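RNA from 8 gastrocnemius samples was hybridised to Affymetrix mouse gene arrays, 1 array each; per the labels, 150 ng of total RNA with an integrity number above 8 was amplified and biotin-labelled. The deposited values are log2 signals per probe set, made by the authors with Affymetrix Expression Console 4.0, per the submitters' processing notes. Background correction, summarisation and normalization: not given in the sources used here. That the scale is log2 was read from the values. The number of arrays limits the precision.

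Of 35556 probe sets, 21789 had exactly 1 symbol, 1621 several and 12146 were not listed in the annotation; 21698 matched the RefSeq gene table (GRCm38.p6) by Entrez identifier and 0 symbols changed. The brightest probe set per gene was kept (19938 genes, no dim filter). Values were not normalized again. Genotypes were compared with limma 3.58.1 in R 4.3.3 (lmFit, eBayes, genotype only), with Benjamini-Hochberg adjustment over all genes and a threshold of 0.05; differences are knockout minus wild type. Exact 2-sided permutation tests used all 70 arrangements of the arrays (scipy 1.17.1). The fit was tested on simulated data. Figures used matplotlib 3.10.9.

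Named genes are Hdac5, the listed genes, the 3 of smallest p from each of 6 pathway lists with any past the threshold, the 2 brightest of each of 6 marker lists, and the 3 most like the gene of smallest p; other names were chosen after their values were seen. The genes and lists were chosen with earlier results of these data known. Alternatives covered quantile normalization, median centring, the dim filter, probe set averaging, all probe sets, trended and robust eBayes, array weights, a replicate block and leaving out arrays.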

Additional observations from a re-analysis of the deposited data

Results flagged for a closer look

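Values of 27 genes were checked in both groups for a sample far from the rest of its 4, by the gap to the nearest sample divided by the group's range. Of 54 such checks 5 were past the 95% limit, and chance gives about 1 in 20. Fabp3 in knockout sample 1 (13.08, the others 13.38 to 13.44) had a ratio of 0.844, and Lpl in the same sample (12.50, the others 12.80 to 12.83) had 0.915. Slc27a1 in wild type sample 3 (10.40, the others 10.55 to 10.57) had 0.926. Gpat3 in knockout sample 3 (8.62, the others 8.86 to 8.88) had 0.905. Fitm2 in knockout sample 4 (10.62, the others 10.77 to 10.78) had 0.949.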

How the results depend on the processing

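Under 17 alternatives, 0 of 152 values of the 9 genes passed the threshold in limma (smallest adjusted p = 0.248), and 3 changed sign. With 1 sample left out, Cd36 ranged from -0.016 to 0.103 and Pnpla2 from -0.0045 to 0.099. Without wild type samples 2 and 3, chosen after seeing the data, Pnpla2 was -0.014 and 4 genes passed in all. The count of changed genes over the whole table, 13, was 23 with quantile normalization, 44 with trended and robust eBayes and 31 with array weights. It was 33 with dim genes left out, a setting in which Angptl4 was itself left out as dim. With all probe sets in the fit it was 5 (28 probe sets passed there, unnamed ones included). With 1 sample left out it was 5 to 20 (5 without wild type sample 2 or 4, 20 without knockout sample 4). The cause of these shifts was not tested. Other pathway genes past the threshold ranged from 0 to 1 (Ucp3). The labels link the 2 groups by sample number only. Deviations of same-numbered samples correlated at 0.338, -0.115, -0.153 and 0.34, against -0.326 to 0.204 for pairs with different numbers. Samples 1 and 4 matched their own number best, and samples 2 and 3 did not. The fit with the replicate number as a block gave 30 genes, against 13 without it, and none of the 9. What the shared numbers stand for was not tested. Dim signal limits Angptl4, and 4 arrays per group limit all values.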

Other observations

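Fitm1, a droplet-forming protein of skeletal muscle, was chosen here after its values were seen. It read 13.33 to 13.40 in the knockout samples and 13.42 to 13.51 in the wild type samples, without overlap, a difference of -0.10 (SE 0.054, limma adjusted p = 0.703). Plin1, the perilipin of adipocytes, read 9.07 in wild type sample 2 and 7.94 to 8.42 in the other 7 samples, and Cidec, which enlarges droplets, read 9.48 in that sample and 7.73 to 9.07 elsewhere. Plin4, which coats droplets in fat and muscle, read 10.56 to 10.80 in knockout and 10.43 to 10.79 in wild type muscle. Vldlr, a receptor for triglyceride-rich lipoproteins, read 12.83 to 13.00 and 12.78 to 13.07.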
